A study of Homo sapiens with 4 samples.

Results

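The renal solute carrier families studied here were the human SLC2, SLC5, SLC12, SLC13, SLC16, SLC17, SLC22 and SLC34 genes, chosen by gene symbol alone. Of 19126 protein-coding genes on chromosomes 1 to 22 of GRCh38, 87 carried such a symbol. Of these 87 members, 30 are known as transporters of the proximal tubule, 4 of the distal nephron, 28 of many tissues and 24 of other organs. The remaining one, SLC2A4RG, encodes a transcription factor whose symbol also matched, so 86 are solute carrier genes. Each member was read with 50 kb on either side, and these windows held 883 of the 138467 merged open regions of the series. Neighbouring members share sequence, and 71 regions lay in the windows of more than 1 member.

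Open chromatin was mapped by ATAC-seq, a transposase-based assay of accessible DNA, in 786-O, a line from human clear cell renal carcinoma that lacks functional VHL. The 2 DEK KO libraries came from cells in which DEK, a chromatin-binding protein, was targeted by guide RNA virus before sorting of single cells. The 2 WT control libraries came from negative control cells, labelled wild type. Per the labels, both groups express Cas9, from a clone made with a lentivirus that carries a blasticidin marker. Whether the control cells were also sorted singly, and whether libraries within a group are independent clones or repeats of one culture, is not stated. The p-values below thus rest on a spread that could be purely technical. Peak lists cannot check the knockout itself.

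Solute carriers move sugars, organic ions, phosphate, sulfate, carboxylates and salts across membranes. The proximal tubule, from which clear cell carcinomas are thought to arise, reclaims filtered solutes through sodium-driven apical carriers such as SGLT2 and NaPi-IIa, and secretes drugs and waste through organic anion and cation carriers. Distal segments use the cation-chloride carriers NKCC2 and NCC, while most cells take up glucose through GLUT1 and exchange lactate through MCT1 and MCT4.

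The authors deposited 1 peak list per library. The lists held 102760 and 99508 peaks in DEK KO and 89563 and 90409 in WT control, so the DEK KO lists were longer. A gene end was called open in a list when a peak lay within 1 kb of either end of the gene, and a start was called open when a peak lay within 1 kb of the transcription start, which was listed for 68 members. Peak strength was read from the deposited −log10 p as a percentile within its list, where 100 is the strongest peak. Fewer cells with an open site and less opening per cell cannot be told apart in such bulk lists. Of the marker genes examined, PAX8, a factor of the renal epithelium, and VIM, an intermediate filament of mesenchymal cells, had an open end in all 4 lists. The proximal tubule markers HNF4A, CUBN and AQP1 were open in no list, LRP2 in 2 lists and GGT1 in all 4. CDH6 was open in all 4 lists, and PAX2, CA9 and NNMT in none. Markers of blood cells and endothelium were open in no list, while APOA1 of hepatocytes and SNAP25 of neurons were open in all 4, and ALB and RBFOX3 of the same cell types in none.

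The promoters of 6 members are shown because the results below turn on them, as the 300 bases that RefSeq places around the transcription start on GRCh38.p14, 250 before it and 50 after, read along the gene's strand. The first pair belong to classic proximal tubule carriers whose starts were open in no list, and capitals mark TATAAA on either strand, the letters of the TATA box. In SLC34A1 they begin at position -31 from the start, on the gene's strand, and in SLC22A6 at -134, on the opposite strand, away from where a TATA box acts. SLC34A1, at chr5:177384184-177384483 (+), encodes the phosphate carrier NaPi-IIa, and SLC22A6, at chr11:62984918-62985217 (−), the organic anion carrier OAT1.
SLC34A1: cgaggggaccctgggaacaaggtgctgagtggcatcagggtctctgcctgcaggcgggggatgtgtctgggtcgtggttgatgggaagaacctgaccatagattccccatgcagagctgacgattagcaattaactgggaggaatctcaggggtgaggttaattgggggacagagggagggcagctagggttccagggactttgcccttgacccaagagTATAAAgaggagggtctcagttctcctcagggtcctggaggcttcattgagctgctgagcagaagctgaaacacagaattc
SLC22A6: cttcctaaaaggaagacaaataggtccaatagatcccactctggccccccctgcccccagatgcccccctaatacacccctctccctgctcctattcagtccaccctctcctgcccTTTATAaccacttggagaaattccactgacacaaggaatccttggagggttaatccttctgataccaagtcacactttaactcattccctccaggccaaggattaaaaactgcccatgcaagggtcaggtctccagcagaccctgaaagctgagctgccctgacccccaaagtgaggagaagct

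The next pair had starts open in all 4 lists, and capitals mark GGGCGG on either strand, the GC box bound by SP and KLF factors. The SLC2A1 promoter also holds TATAAA at -31, in lower case here. They belong to the glucose carriers GLUT8, at chr9:127396919-127397218 (+), and GLUT1, at chr1:42958819-42959118 (−).
SLC2A8: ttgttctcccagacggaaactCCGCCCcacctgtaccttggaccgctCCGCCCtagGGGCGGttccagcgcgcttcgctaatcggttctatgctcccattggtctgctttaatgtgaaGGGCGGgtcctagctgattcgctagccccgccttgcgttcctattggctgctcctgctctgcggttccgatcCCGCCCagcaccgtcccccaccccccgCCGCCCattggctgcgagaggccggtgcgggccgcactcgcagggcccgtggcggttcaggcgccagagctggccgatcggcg
SLC2A1: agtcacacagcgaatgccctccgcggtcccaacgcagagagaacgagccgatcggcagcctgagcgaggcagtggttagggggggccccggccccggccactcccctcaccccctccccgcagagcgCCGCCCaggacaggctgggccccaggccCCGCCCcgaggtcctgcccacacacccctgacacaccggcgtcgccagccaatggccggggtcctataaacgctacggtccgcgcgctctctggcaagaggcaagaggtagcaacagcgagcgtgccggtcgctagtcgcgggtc

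The last pair differed between the genotypes. SLC17A3, at chr6:25874194-25874493 (−), encodes the urate and organic anion carrier NPT4, and capitals mark TGANTCA, a site of AP-1 factors. SLC22A17, at chr14:23352838-23353137 (−), encodes a receptor for lipocalin-2, and capitals mark ACGTG, the core of sites of hypoxia-inducible factors and also part of the E-box CACGTG of other factors.
SLC17A3: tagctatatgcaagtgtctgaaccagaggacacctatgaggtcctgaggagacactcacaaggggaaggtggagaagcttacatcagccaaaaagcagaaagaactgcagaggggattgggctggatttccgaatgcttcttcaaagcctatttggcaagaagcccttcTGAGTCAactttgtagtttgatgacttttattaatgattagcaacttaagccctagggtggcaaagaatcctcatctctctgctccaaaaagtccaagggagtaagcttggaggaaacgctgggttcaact
SLC22A17: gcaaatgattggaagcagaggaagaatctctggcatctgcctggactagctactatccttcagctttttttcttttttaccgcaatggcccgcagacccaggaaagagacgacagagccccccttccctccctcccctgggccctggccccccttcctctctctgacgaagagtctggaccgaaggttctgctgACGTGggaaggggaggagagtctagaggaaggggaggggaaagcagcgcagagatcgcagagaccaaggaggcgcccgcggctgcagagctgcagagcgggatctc

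Across all RefSeq promoters of this length, 15101 in number, TATAAA was found in 9.71%, GGGCGG in 58.9%, TGANTCA in 5.70% and ACGTG in 23.6%, with both strands searched. TATAAA stood in 1 of the 22 member promoters open in all 4 lists, that of SLC2A1, and in 9 of the 38 open in no list. GGGCGG stood in 16 of these 22, or 72.7%, and in 14 of these 38, or 36.8%. The open member starts were rich in GC, with a median of 71.2% and 30 CpG, against 65.3% and 27 CpG in the 9071 promoters of all genes open in all 4 lists. The closed member starts had a median of 55.5% GC and 7.5 CpG, close to the 55.7% and 7 CpG of closed promoters of all genes. These matches describe letters and are not binding sites.

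By segment, open ends were most frequent among carriers known from many tissues, and less frequent among those of the nephron. Among carriers of many tissues, 23 of 28 had an end open in all 4 lists, or 82.1%, against 60.1% of all protein-coding genes. Among proximal tubule carriers this was 8 of 30, or 26.7%, and 12 had no open end in any list, where 29.9% of all genes had none. Among distal nephron carriers 1 of 4 was open in all lists, and among carriers of other organs 3 of 24, or 12.5%. Over all 87 members, 36 were open in all 4 lists, or 41.4%, and 37 in none. With transcription starts alone, listed for 68 members, 22 were open in all 4 lists, or 32.4%, against 60.1% of all genes with a listed start, and 38 in none, against 32.5% of all genes. Ends and starts could differ, as SLC2A10 had no open end but a start open in all 4 lists. SLC16A3, SLC16A7, SLC16A12 and SLC2A14 had an end open in all 4 lists and a listed start open in none.

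**Figure D1:**
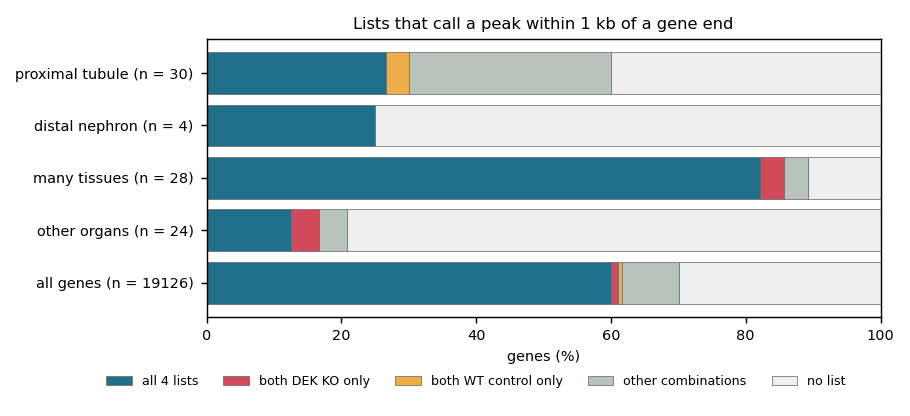
Share of members, in percent, whose gene end was open in all 4 lists, in both lists of 1 genotype, in another mix of lists or in none, by segment, with all protein-coding genes for comparison. The end was open in all lists for 82.1% of carriers of many tissues and for 26.7% of proximal tubule carriers, against 60.1% of all genes.

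Several well-known apical and basolateral carriers of the proximal tubule were among the 12 closed members. No list had a peak within 1 kb of either end of SLC34A1 or SLC34A3, the sodium-phosphate carriers, of SLC5A1, encoding the glucose carrier SGLT1, or of SLC2A2, encoding the glucose exit carrier GLUT2. The same was seen for SLC22A8, encoding the organic anion carrier OAT3, SLC22A12, encoding the urate carrier URAT1, and SLC22A13, a urate and nicotinate carrier. SLC2A5, encoding the fructose carrier GLUT5, SLC5A8 and SLC5A12, the monocarboxylate carriers, SLC13A1, a sulfate carrier, and SLC22A24 complete the 12. In the distal nephron, SLC12A1, encoding NKCC2 of the thick ascending limb, SLC12A3, encoding NCC of the distal convoluted tubule, and SLC12A7, encoding the potassium-chloride carrier KCC4, had no open end in any list. The listed start of SLC12A7 lies away from its ends and had a peak in DEK KO replicate 2 alone, with a fold of 3.58. The inositol carrier gene SLC5A3 was open in all 4, through regions of which none was called in every list. Of markers of these segments, UMOD of the thick ascending limb and AQP2 and FOXI1 of the collecting duct were open in no list, and PVALB of the distal convoluted tubule in 2 lists.

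The 8 proximal tubule members open in all 4 lists were led by SLC22A4, the ergothioneine carrier OCTN1. Its strongest end peak stood at the percentiles 93.6 and 95.1 in DEK KO and 96.5 and 95.4 in WT control. The others were SLC13A3 (the dicarboxylate carrier NaDC3), SLC22A5 (the carnitine carrier OCTN2), SLC22A11 (the organic anion carrier OAT4), SLC17A3, SLC16A12 (a creatine carrier), SLC5A10 (the mannose and fructose carrier SGLT5) and SLC16A10 (an aromatic amino acid carrier). The median of their mean percentiles was 57.8, against 79.0 for the 23 open carriers of many tissues. Taken list by list, the median over all genes with an open end was 81.0 to 83.0, and over open members 68.8 to 71.4.

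Among the members, carriers of many tissues held the strongest ends. SLC2A8 stood at percentiles 98.7 and 99.7 in DEK KO and 99.6 and 99.7 in WT control. SLC12A2, encoding the widespread chloride carrier NKCC1, stood at 95.3 and 97.4 in DEK KO and 93.2 and 98.2 in WT control. In both genes the groups overlapped. SLC2A1 had 2 open ends, and the stronger lay at the end of transcription, at chr1:42924029-42924847, with percentiles 93.8 and 94.7 in DEK KO and 87.7 and 93.2 in WT control. The groups were apart on this scale but overlapped when ranked among the regions called in all 4 lists, at 89.9 and 91.6 in DEK KO and 82.4 and 90.1 in WT control. At its start, chr1:42958670-42959508, the percentiles were 67.3 and 73.3 in DEK KO and 70.1 and 83.4 in WT control, which overlap. SLC16A1, encoding the lactate carrier MCT1, stood at 86.4 and 77.3 in DEK KO and 76.4 and 81.2 in WT control. SLC16A3, encoding the lactate exporter MCT4, stood at 87.9 and 79.1 in DEK KO and 68.5 and 80.5 in WT control, at the gene end of lower coordinate. Neither lactate carrier separated the genotypes. SLC2A3, encoding GLUT3, and SLC2A14 are near-identical neighbours, so how reads were divided between them is uncertain.

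Of the carriers known from other organs, those open in all lists were SLC2A4, the insulin-responsive GLUT4 of muscle and fat, SLC12A5, the KCC2 of neurons, and SLC2A14, the GLUT14 of testis. The SLC2A4 peak stood at 81.3 and 77.5 in DEK KO and 75.8 and 91.2 in WT control. The vesicular glutamate carrier genes SLC17A6 and SLC17A8 and the thyroid iodide carrier gene SLC5A5 were open in none.

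**Figure D2:**
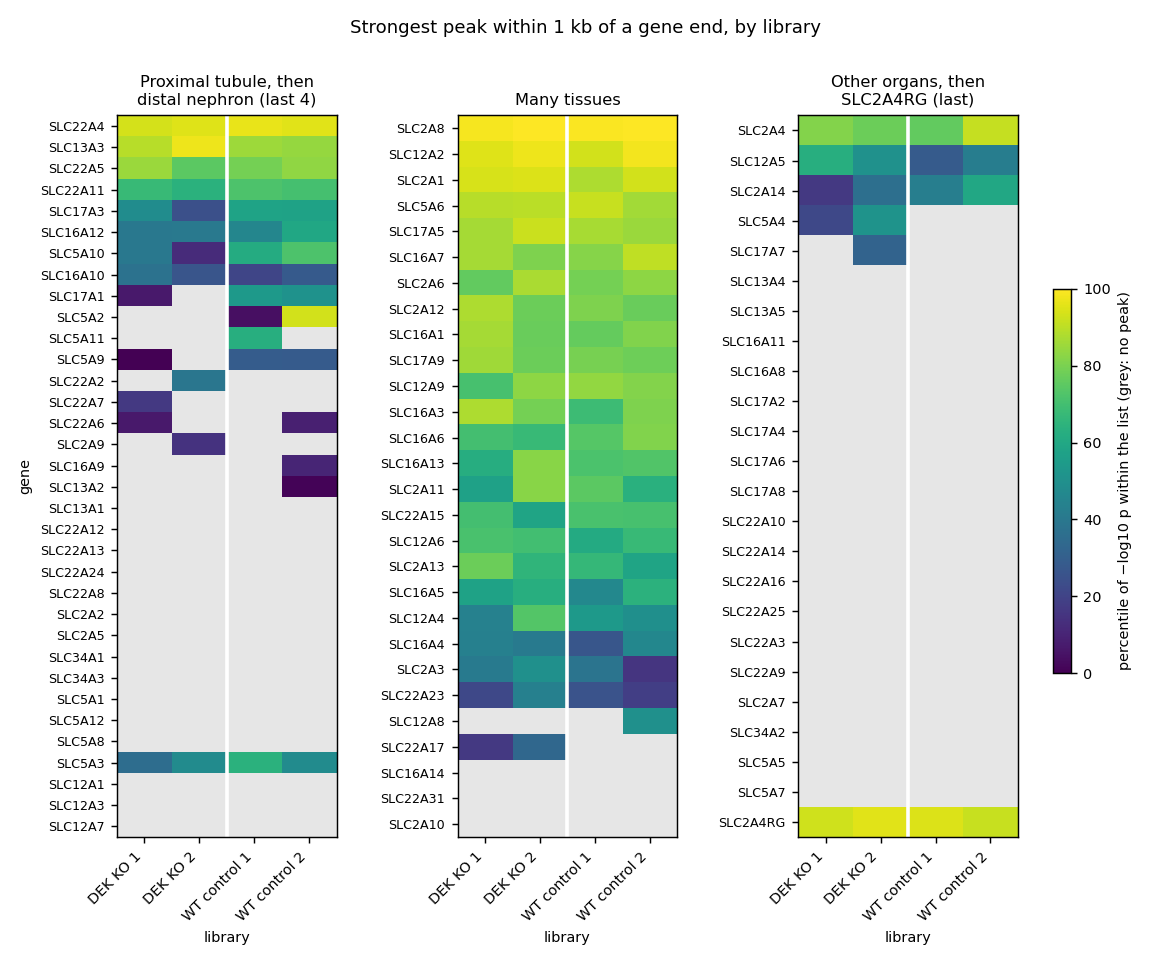
Percentile of −log10 p, within each list, of the strongest peak within 1 kb of a gene end, for 86 of the 87 members in rows, without 1 carrier of other organs that had no open end, and the 4 libraries in columns, DEK KO left of the white line and WT control right of it. Grey marks no peak. Carriers of many tissues are coloured in nearly every row, with SLC2A8 at 98.7 to 99.7, while 12 proximal tubule rows and 18 rows of other organs are grey throughout.

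Between the genotypes the mean number of open members was the same. An end was open for 42 and 41 members in DEK KO and for 40 and 43 in WT control, a mean of 41.5 ± 0.707 in DEK KO and 41.5 ± 2.12 in WT control (SD, n = 2 each; exact two-sided permutation test, p = 1). As shares these were 48.3% and 47.1% of members in DEK KO, where 65.0% and 65.5% of all genes were open, and 46.0% and 49.4% in WT control, where 64.1% of all genes were open in each list. With 2 libraries a group, the smallest p that this exact test allows is 0.333. Open starts numbered 24 and 25 of 68 in DEK KO and 23 and 28 in WT control (exact permutation p = 1). Proximal tubule carriers were open in 12 and 10 cases in DEK KO and 12 and 14 in WT control (exact permutation p = 0.667). Carriers of many tissues were open in 24 and 24 cases in DEK KO and 23 and 24 in WT control (exact permutation p = 1). Of 24 carriers of other organs, 4 and 5 were open in DEK KO and 3 in each WT control list, which do not overlap (exact permutation p = 0.333). Open ends over all genes did not overlap either, at 12433 and 12536 in DEK KO and 12260 and 12261 in WT control. The DEK KO lists were also the longer ones.

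At the gene ends themselves, 72 regions lay within 1 kb of a member's end. Of these 4 were KO-only, where 2.21% of such regions of all genes were, and 1 was WT-only, where 1.37% were. By the distance rule, 3 members had an end open in both libraries of one genotype and neither of the other. Those of both DEK KO libraries were 2, SLC22A17 and SLC5A4, where 1.05% of all genes showed this pattern. The member of both WT control libraries was SLC5A2, where 0.497% of all genes did. At the SLC22A17 start, the region chr14:23352602-23353276 had fold enrichments over background of 4.12 and 5.87 in DEK KO, at percentiles 16.8 and 33.3. These are modest peaks, and the nearest WT control peaks lay 23933 and 23921 bp from that start. SLC5A4, encoding the glucose sensor SGLT3, was open at its end of higher coordinate, chr22:32354762-32355509, also an end of RFPL3. The folds there were 4.46 and 7.62 in DEK KO, and the nearest WT control peaks lay 13095 and 13274 bp away. The listed start of SLC5A4 lies away from this end and was open in no list.

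SLC5A2, encoding SGLT2, the main glucose carrier of the early proximal tubule, met the rule only through the edges of its peaks. The region chr16:31484082-31485238, inside the gene and downstream of its start, was called in all 4 lists. Its folds were 8.57 and 5.99 in DEK KO and 9.70 and 8.09 in WT control. The nearest edges lay 1178 and 1236 bp from the start in DEK KO and 1106 and 959 bp in WT control, so 1 list fell inside the 1 kb limit here. WT control replicate 1 was counted through a weak peak at the other gene end, with a fold of 3.13.

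Regions at proximal tubule gene ends that were called in all 4 lists were also compared by rank. To compare strength without the length of the lists, regions called in all 4 lists were ranked among themselves in each library, again with 100 as the strongest. Of 11 such regions, 6 ranked lower in both DEK KO libraries than in both WT control libraries and 1 ranked higher. The 6 include SLC5A2, whose region came within 1 kb of the end only through the wider peak of WT control replicate 2. It was thus counted through a group in which it ranked higher. Over all genes, 23.1% of shared end regions ranked lower and 17.0% higher in this way. Over all member ends, 9 of 43 ranked lower, or 20.9%, and 3 higher, or 6.98%. The lower ones outside the proximal tubule list included the SLC2A14 end, at 2.63 and 16.1 in DEK KO and 24.0 and 43.8 in WT control. The SLC22A15 start was another, at 52.2 and 38.7 in DEK KO and 59.5 and 58.7 in WT control. The proximal tubule ends were singled out after these values were seen, and their count was not tested.

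The widest gap was at SLC5A10, at chr17:18950951-18952247 just inside its start. It ranked at 15.9 and 2.47 in DEK KO and 46.5 and 59.9 in WT control, with folds of 5.30 and 3.84 in DEK KO and 7.55 and 7.96 in WT control. The SLC17A3 region, chr6:25874376-25876873, overlaps the upstream part of the promoter shown, but not the capitals marked there, and ranked at 24.1 and 12.4 in DEK KO and 41.6 and 40.6 in WT control. SLC5A2 ranked at 85.5 and 34.0 in DEK KO and 91.3 and 90.3 in WT control. In all 3 genes the groups were apart, but at SLC5A2 DEK KO replicate 1 lay near the WT control libraries. SLC16A12 ranked at 15.7 and 19.6 in DEK KO and 27.3 and 43.3 in WT control. SLC22A11 ranked at 48.2 and 45.7 in DEK KO and 60.4 and 58.2 in WT control. SLC22A4 ranked at 89.5 and 92.2 in DEK KO and 95.1 and 93.4 in WT control, a narrow separation at the top of the scale. The exception in the other direction was SLC13A3, whose end of lower coordinate ranked at 82.5 and 95.8 in DEK KO and 79.3 and 77.0 in WT control. At SLC22A5, SLC22A6, SLC16A10 and the other end of SLC13A3 the groups overlapped. At SLC5A2 and SLC22A6 the merged region touches the 1 kb limit, while the peak itself did so in fewer lists. SLC17A1, the neighbour of SLC17A3 that encodes the urate carrier NPT1, was not called in DEK KO replicate 2 and so is not among the 11. Its start peak had a fold of 3.43 in DEK KO replicate 1 and folds of 7.76 and 7.05 in WT control.

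**Figure D3:**
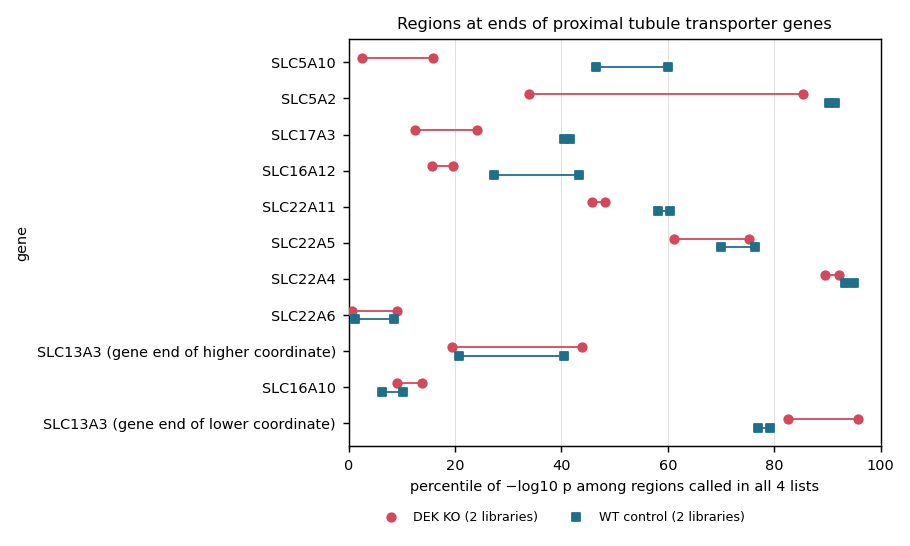
Percentile of −log10 p among regions called in all 4 lists, for the 11 such regions at ends of proximal tubule carrier genes, with 1 point per library and a line joining the libraries of a group. SLC5A10 shows the widest gap, at 15.9 and 2.47 in DEK KO against 46.5 and 59.9 in WT control, and the SLC13A3 end of lower coordinate lies the other way.

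Over the whole windows the call shares of member regions stood near those of all genes. Of the 883 regions, 60 had a peak in each DEK KO list and in no WT control list (KO-only), or 6.80%, against 5.78% over the windows of all protein-coding genes. The reverse class (WT-only) held 19 regions, or 2.15%, against 2.54%. All 4 lists called 427, or 48.4%, against 47.4%. Among one-genotype regions the KO-only share was 75.9% in member windows and 69.4% in all gene windows, with the longer lists on the DEK KO side. When each list was shortened to its strongest 89563 peaks, the windows held 45 KO-only and 25 WT-only regions, a KO-only share of 64.3% against 55.0% over all gene windows. At least 1 KO-only region lay in 42 of 87 member windows, a higher share than the 41.2% of all genes. A WT-only region lay in 13, a lower share than the 20.1% of all genes. These window counts are not like for like, since members had a median span of 33.9 kb against 24.5 kb over all genes. Neighbouring members can also count the same region. Peaks called in member windows made 681 and 641 regions in DEK KO and 571 and 588 in WT control (exact permutation p = 0.333). The whole lists differed the same way, with 102760 and 99508 peaks in DEK KO and 89563 and 90409 in WT control.

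Strength over the shared regions was also compared with the background. In member windows 103 of 427 shared regions ranked higher in both DEK KO libraries, or 24.1%, against 23.6% over all gene windows, and 89 ranked lower, or 20.8%, against 25.3%. Ranked within the whole lists instead, 136 were higher, or 31.9%, against 30.5% over all gene windows, and 68 lower, or 15.9%, against 18.9%. The per-library medians were 52.4 and 54.7 in DEK KO and 49.96 and 53.5 in WT control, and overlapped (exact permutation p = 0.667). Proximal tubule windows had 34 higher and 42 lower of 147, windows of carriers of many tissues 38 higher and 35 lower of 187, and windows of carriers of other organs 28 higher and 18 lower of 96. Between families, SLC13, of sulfate and carboxylate carriers, had 13 higher and 3 lower of 27, and 10 KO-only beside 2 WT-only regions. SLC16, of monocarboxylate carriers, had 10 higher and 23 lower of 71, and 9 KO-only beside 4 WT-only regions. SLC34, of phosphate carriers, had 1 WT-only region and no KO-only region. These families were not tested against each other.

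**Figure D4:**
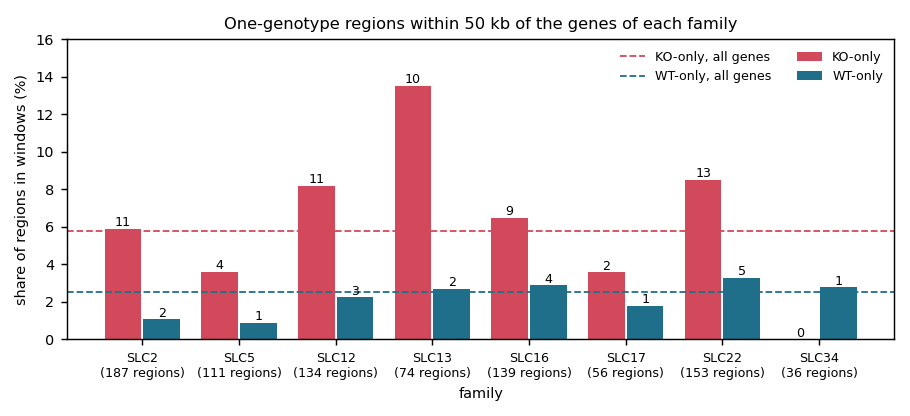
KO-only and WT-only regions in the windows of each family, as a percentage of the family's regions, with the count above each bar and the shares over all gene windows, 5.78% and 2.54%, as dashed lines. SLC13 has the tallest KO-only bar, at 10 of 74 regions, and SLC34 has none.

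The strongest KO-only regions lay away from gene ends. The first was 25.4 kb from SLC16A10, at chr6:111061473-111062118, with folds of 9.57 and 9.95 in DEK KO and no WT control peak. A pair lay 20.8 and 26.8 kb from SLC2A6, encoding GLUT6, at chr9:133449780-133450245 with folds of 8.14 and 9.22, and at chr9:133443861-133444326 with folds of 9.38 and 7.77. All 3 stood above the middle of both DEK KO lists, with their lower percentile between 58.7 and 67.8. Others lay near SLC2A11 (GLUT11), SLC16A14 and SLC12A7. SLC2A9, encoding the urate carrier GLUT9, held 4 KO-only regions against 1 WT-only, among the 30 regions of its window. SLC13A3, SLC22A2 (the organic cation carrier OCT2) and SLC12A7 held 3, 3 and 2, with no WT-only region. Their windows held 22, 15 and 26 regions. Over all genes the median window held 10 regions, and 5.78% of regions were KO-only. At the ends of SLC22A2, DEK KO replicate 2 was the one list with a peak within 1 kb.

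The strongest WT-only region lay 30.8 kb from SLC17A1, at chr6:25692023-25692905, with folds of 9.18 and 6.49 in WT control. The next lay 28.9 kb from SLC16A1, at chr1:112985079-112985579, with folds of 6.97 and 5.90. The lower of their percentiles was 44.2 and 38.7, so they were weaker within their lists than the leading KO-only regions. SLC12A8 had a WT-only region beside its end, chr3:125083585-125084192, with folds of 4.95 and 5.94, of which the peak of WT control replicate 2 alone lay within 1 kb. SLC16A4 and SLC22A23 each held 3 WT-only regions against 1 KO-only region, among 15 and 28 regions in their windows. Over all gene windows 2.54% of regions were WT-only. The 3 of SLC16A4 lay 49.88, 31.7 and 49.96 kb away, with lower percentiles of 35.2, 5.99 and 2.38. That count thus rests partly on the window limit and on weak peaks. SLC13A4, a sulfate carrier of placenta and brain, held 4 KO-only regions against 2 WT-only among 23 regions. The stronger WT-only region lay inside the gene.

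Among regions called in all 4 lists, the widest gaps upward were also distal. A region 37.9 kb from SLC12A2, at chr5:128227621-128228728, ranked at 70.6 and 78.9 in DEK KO and 14.9 and 19.7 in WT control, while the end of the same gene overlapped between groups. Inside SLC2A9, chr4:9999978-10000721 ranked at 69.2 and 74.5 in DEK KO and 25.6 and 23.5 in WT control. Inside SLC13A1, chr7:123191094-123191924 ranked at 61.3 and 70.4 in DEK KO and 13.3 and 19.1 in WT control. The SLC13A1 gene thus held a region of mid rank in DEK KO although its start was open in no list. SLC12A7, SLC5A1 and SLC2A10 held the next regions, all higher in both DEK KO libraries.

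The widest gaps downward, apart from the SLC5A10 start, included 2 regions near SLC2A2. The one 33.7 kb away, at chr3:170961698-170962668, ranked at 6.40 and 9.001 in DEK KO and 39.7 and 53.7 in WT control. The one 17.1 kb away, at chr3:170978058-170979200, ranked at 43.9 and 38.3 in DEK KO and 68.6 and 78.2 in WT control. Both lay in the window of a gene without an open end. The region at chr17:7292927-7293742, 4.67 kb from SLC2A4 and at an end of YBX2, ranked at 23.2 and 5.96 in DEK KO and 50.9 and 60.5 in WT control. SLC5A11, an inositol carrier gene, and SLC13A2 had the others, 38.5 and 47.0 kb away. These regions were chosen for their gaps and are described, not tested.

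**Figure D5:**
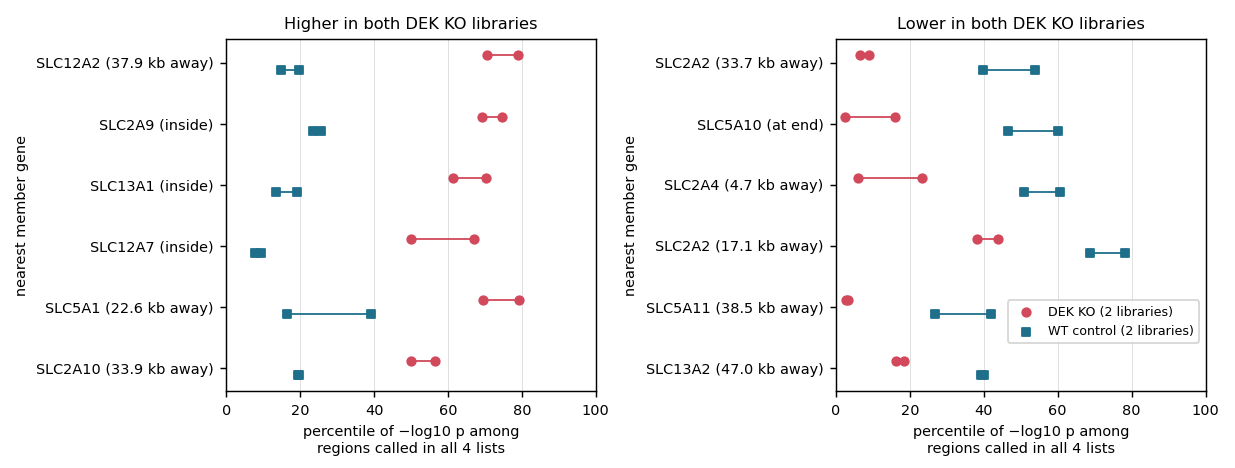
Percentile of −log10 p among regions called in all 4 lists, per library, for the 6 regions with the widest gap in each direction in the windows of members. The region near SLC12A2 lies at 70.6 and 78.9 in DEK KO against 14.9 and 19.7 in WT control, and one near SLC2A2 lies at 6.40 and 9.001 in DEK KO against 39.7 and 53.7 in WT control.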

How the data were processed

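ATAC-seq peak lists of 2 DEK KO and 2 WT control libraries were analysed. Per the submitters' processing notes, the tools included MACS2 2.2.7.1, Bowtie2 2.2.5 and Picard 2.26.9, and the builds were GRCh38 and hg38. Their settings, and any shift of reads for the transposase, are not given in the sources used here. Although the series is ATAC-seq on genomic DNA, its extraction text speaks of RNA and an mRNA library kit.

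Each deposited list is per library and gives a score, the authors' fold enrichment at the summit, and −log10 p and −log10 q per peak. The lowest deposited −log10 q was 1.30 to 1.32, a q-value limit of 0.05. Depth is unknown, since the lists hold no read counts. Fold and −log10 p describe or rank peaks within a list.

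Lists were merged where peaks overlapped by 1 bp (Python 3.11.15, pandas 2.3.3, numpy 2.4.6, scipy 1.17.1, matplotlib 3.10.9), and the strongest peak of a region per list was ranked. Gene spans and starts came from RefSeq GRCh38.p14. Counts were compared over libraries by exact two-sided permutation. A few items are not reported here. The scripts were tested on simulated data. Segments follow textbook knowledge. Named genes were a fixed set of well-known carriers, members with an end open in 1 genotype, the leaders of each call class and rank gap, and the strongest end per family. Genes named in addition, for their role or location, were chosen after their values were seen. Members, lists and alternatives were chosen with earlier results of these data known. Alternatives covered overlap, window, end distance, q, list length, whole-list ranks, starts, each replicate left out and a replicate block.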

Additional observations from a re-analysis of the deposited data

How the results depend on the processing

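No test across libraries could pass 0.05, so only sizes can move. With windows of 10 kb there were 36 KO-only and 8 WT-only regions, 51 shared regions higher and 46 lower of 210, and a median rank difference (DEK KO minus WT control) of -0.0185, against 0.17 with 50 kb. Leaving out each replicate in turn gave 82 to 154 KO-only and 40 to 65 WT-only regions, 156 to 196 shared regions higher and 142 to 166 lower. The median rank difference then ran between -0.298 and 1.84, with -0.00906 without DEK KO replicate 2 and -0.298 without WT control replicate 1. The difference in open starts, -1 in all libraries, ran between -3.5 and 1.5, with 1.5 without WT control replicate 2. The difference in open ends, 0 in all libraries, ran between -1.5 and 1.5. Proximal tubule ends open in all lists numbered 8 to 10, those of many tissues 23 each time, and proximal tubule end regions lower in DEK KO 6 to 9. By starts alone, added after the data were seen, 14 of 21 carriers of many tissues and 5 of 23 of the proximal tubule were open in all lists. Narrower windows and fewer lists change these counts by construction. The cause of the other shifts was not tested. With −log10 q of at least 5 the difference in open ends was -2. With ranks within the whole lists the median rank difference was 2.13 in member windows and 1.26 over all gene windows. Deviations of same-numbered libraries had a correlation of 0.0143 over 62686 shared regions. With 2 libraries a group this is a single comparison, so it cannot show whether the numbers mark a pairing. With a replicate block the differences are 0 for open ends (exact permutation p = 1) and 0.17 for the median rank (exact permutation p = 0.5). Without read counts, a missing peak means only that none passed the authors' limit.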

Other observations

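The windows of members differed in how many regions they held, with a median of 10 per member and 10 per gene over all genes. SLC2A9 held 30 regions. Windows in the organic anion carrier cluster on chromosome 11 held few. SLC22A24 had 1 region in its window, shared with that of SLC22A8 and called in all 4 lists. SLC22A25 and SLC22A10, carriers known from liver, shared 1 region, called in WT control replicate 1 alone. SLC22A9, known as OAT7 of the liver, had 2 regions in its window. SLC17A6 had 1 region, called in DEK KO replicate 1 alone. The sequence CCGGAA, the core of ETS factor sites, stood on either strand in 1 of 68 member promoters, against 23.1% of all promoters.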
